A study of Canis lupus familiaris with 4 samples.

Results

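The 9 genes described here encode muscle proteins other than myosin heavy chains. CA3 and CKMT2 are listed under muscle energy, and TCAP, DES and MYOZ1 under the sarcomere and its scaffold. DMD and CLCN1 are listed under the muscle membrane, and PLN and ATP2A2 under calcium handling. The probes taken were all non-control array probes (oligonucleotides printed on the array) that carry the dog RefSeq mRNA accession of one of these genes. This gave 33 probes for 9 genes, of 1648 probes for 1045 genes named in this way and of 43603 probes on the array. Dog mammary tumour RNA, as the labels call it, had been compared on 4 two-colour Agilent arrays, each holding a grade 3 sample, labelled the most malignant, and a grade 1 sample, labelled less malignant. On 2 arrays grade 3 carried the dye Cy5 and grade 1 the dye Cy3, and the other 2 had the reverse labelling. All values below run as grade 3 over grade 1.

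The groups are known only as far as the labels go. Titles and source names speak of tumours, whereas the culture and treatment texts attached to the same samples speak of cancer cell lines kept with blood monocytes for at least 72 hours and then separated by sorting. Whether the RNA came from tissue or from sorted cells is therefore not settled, and the labels used here give no breed, age or number of dogs. Replicates are called biological, but whether they came from separate animals is not said, so p-values measure the spread between these 4 arrays only. In RNA from mixed cells, fewer cells of a type and less RNA per cell cannot be told apart.

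Striated muscle shortens when myosin heads pull on actin filaments within the sarcomere, a unit anchored at its ends in the Z disc. Calcium released from the sarcoplasmic reticulum starts each contraction, and calcium pumps end it by carrying the ion back. Creatine kinases buffer the ATP that both steps use, and a protein complex around dystrophin ties the contractile apparatus to the membrane and the matrix outside. Several of these genes are not limited to skeletal muscle: SERCA2, the product of ATP2A2, is made in most cells, desmin and phospholamban also occur in heart and smooth muscle, and carbonic anhydrase III is abundant in fat as well as in slow muscle.

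The muscle genes did not move together. CA3 and CKMT2, listed under muscle energy, were higher in grade 3 on every tested probe, and CA3 changed most, being 4.32-fold higher on its brightest probe. TCAP was 2.40-fold higher on its brightest probe and slightly lower or not called on its other 3. PLN was 1.78-fold lower, and DES, MYOZ1 and CLCN1 were lower by 1.10-fold to 1.23-fold. DMD and ATP2A2 had probes called in opposite directions. These directions are relative to the bulk of all probes. Scaled to control RNAs spiked into the samples, no muscle probe was called lower. With the local background of every spot used as measured, no call of CKMT2, PLN, DES, MYOZ1 or CLCN1 remained.

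Of the 33 probes, 31 entered the test because Feature Extraction had marked them as well above background throughout one grade or both. A probe was called at an adjusted p under 0.05 by limma, with Benjamini-Hochberg adjustment over all 35411 probes tested. The grades differed widely on these arrays, and 61.7% of all tested probes were called, 31.2% as higher in grade 3 and 30.5% as lower. Of the 31 tested probes of the muscle genes, 13 were called higher, 14 lower and 4 were not called. Their median log2 fold change was -0.06, beside 0.0046 over all tested probes. Calls at least 2-fold higher made up 1.43% of all tested probes and 4 of the 31, namely the 3 probes of CA3 and 1 of TCAP, and calls at least 2-fold lower made up 1.75% of all and 0 of the 31. In both directions these were 3.19% of all tested probes. A call alone thus says little here, and the size of a change carries more. Among the 27 called probes, 25 had the same sign on all 4 arrays. Calls are made from these same ratios, so that count is no separate observation, and the share over all called probes was not compared. The levels of the grades did not overlap for 21 of the 31 probes, beside 44.3% of all tested probes.

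**Figure D1:**
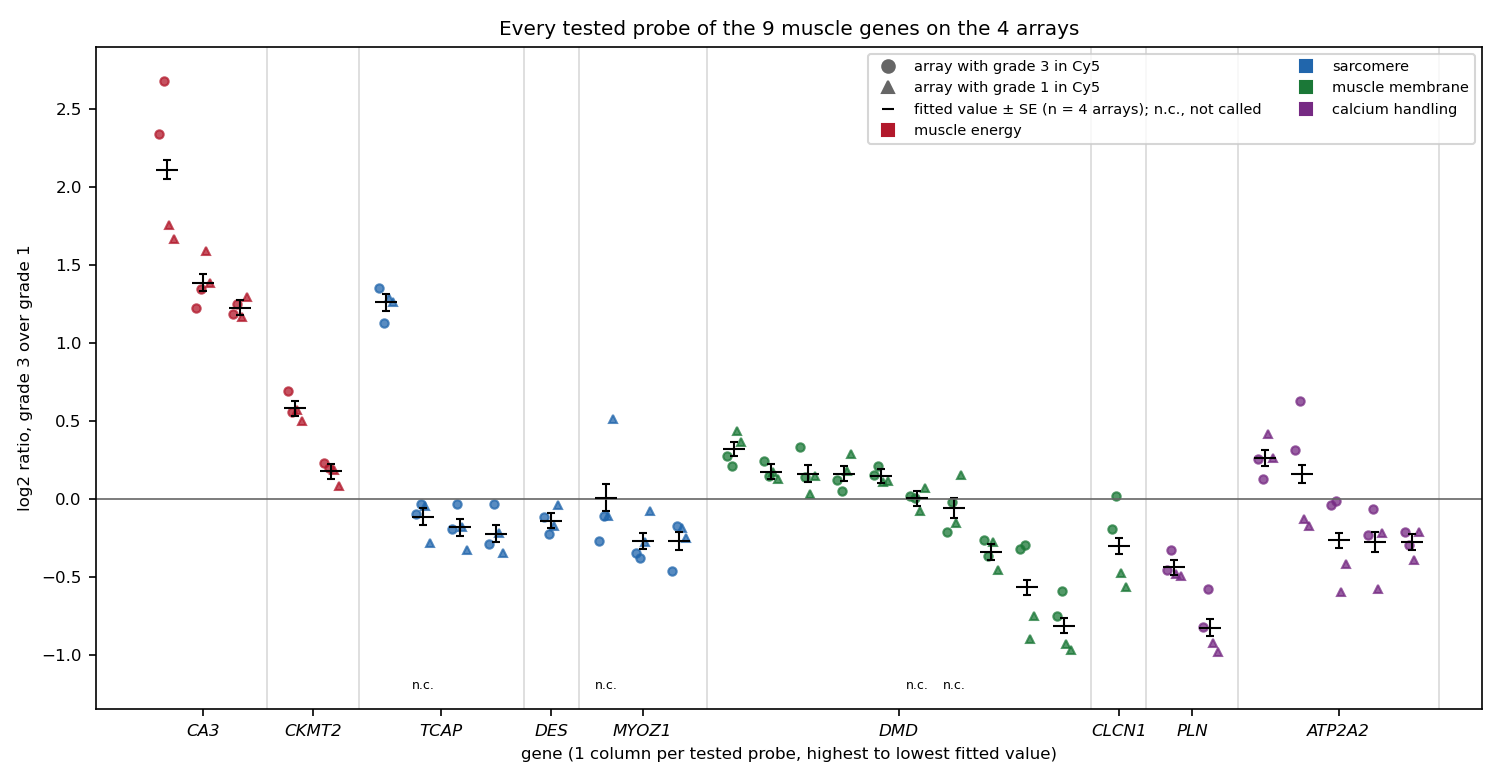
The log2 ratio of grade 3 over grade 1 (vertical axis) is drawn for each of the 31 tested probes, 1 column per probe, grouped by gene and coloured by role. Circles are the 2 arrays with grade 3 in Cy5 and triangles the 2 with grade 1 in Cy5, and the black bar and whisker are the fitted value and its SE. All points of CA3 lie above 1, TCAP has 1 probe above 1 and 3 near or below 0, all points of PLN lie below 0, and DMD and ATP2A2 spread to both sides of 0. With the ratios shifted further to the spike-in controls after loess, 28 of the 31 probes were called higher, as were most of all tested probes. The uncertainty of that shift is common to all probes, so these calls are not separate tests.

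Direction here depends on how the arrays are scaled. The dyes were balanced with loess, which sets the bulk of all probes near a ratio of 0. In an alternative, each array was shifted further, after loess, so that the spiked-in control RNAs had a mean ratio of 0. The median over all probes moved from 0.0046 to 0.67, and the fitted change of every probe rose by the same amount. Differences between probes stayed the same, and a sign turned only where a lower value was smaller than this shift. Of the 31 muscle probes 28 were then called higher and 0 lower, and most of all tested probes were called higher too. Among the 27 called probes, 12 changed sign. The labels do not say how these control RNAs were added. Under this scaling the adjusted p values of the muscle probes followed the size of the change alone. That of A_11_P145143 of CA3 was 5.09e-162 by limma, beside 4.82e-09 before the further shift. The uncertainty of the shift is common to all probes, so calls under this scaling, here and below, are not separate tests. Their p-values were not taken as a measure of the spread between arrays. Changes below are relative to the bulk of the probes, and each probe named as lower was higher or not called relative to the spiked-in RNAs.

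CA3, which encodes the cytosolic enzyme carbonic anhydrase III, gave the largest change. On its brightest probe, A_11_P145143, the log2 ratios were 2.34 and 2.68 on the arrays with grade 3 in Cy5 and 1.76 and 1.67 on those with grade 1 in Cy5. All 4 were high, more so with grade 3 in Cy5. The scanner signal of this probe before any correction was 11529, 12448, 7549 and 7494 intensity units in grade 3 and 1059, 1098, 1897 and 1926 units in grade 1, in the same array order. The lowest grade 3 signal was well above the highest grade 1 signal. The log2 level after normalization was 12.9 ± 0.30 (SD, n = 4) in grade 3 and 10.8 ± 0.20 (SD, n = 4) in grade 1, without overlap. The fitted log2 fold change was 2.11 ± 0.06 (SE), with an adjusted p of 4.82e-09 by limma.

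The 2 dimmer CA3 probes moved the same way by less. A_11_P0000030708 had log2 ratios of 1.19, 1.25, 1.17 and 1.30 and a fitted change of 1.23 ± 0.05 (SE), and A_11_P128591 had 1.22, 1.35, 1.59 and 1.38 and a fitted change of 1.39 ± 0.05 (SE). Their adjusted p values by limma were 3.72e-08 and 3.04e-08. These probes shone at a median of 4.92 and 4.65 times their local background, the brightest one at 153 times. The brightest probe exceeded them by 0.89 ± 0.07 and 0.73 ± 0.06 (SE), with adjusted p values of 5.53e-05 and 7.46e-05 by limma over the probe pairs of all named genes. This order of the CA3 probes depended on the background correction. With Feature Extraction's own processed signals the dimmer probes rose by 1.95 and 2.32 beside 2.18 for the brightest, and with every local background as measured they were at 0.68 and 0.73, not called, beside 1.98 for the brightest, which remained called.

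CA3 ranked 11 from the highest of 925 named genes by the fold change of each gene's brightest probe. The 3 of the other 916 named genes whose ratios on the 4 arrays lay nearest to those of CA3 were TMEM132C, MYH8 and MYH7. The mean absolute difference from CA3 over the 4 arrays was 0.20, 0.24 and 0.33 on the log2 scale. TMEM132C encodes a membrane protein, MYH8 the perinatal and MYH7 the slow myosin heavy chain, and their log2 fold changes were 2.17, 2.36 and 1.78. All 3 had, like CA3, their 2 highest ratios on the arrays with grade 3 in Cy5. They were chosen for nearness on these same ratios, so this likeness is no separate observation. Over its 6 tested probes MYH7 ran from 0.09 to 1.93, and MYH8 over its 2 from 1.31 to 2.36.

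CKMT2, the mitochondrial creatine kinase of striated muscle, rose less. Its brighter probe, A_11_P0000024198, had log2 ratios of 0.69, 0.56, 0.57 and 0.50, and its levels of 7.11 ± 0.16 in grade 3 and 6.53 ± 0.12 in grade 1 (SD, n = 4) did not overlap. The fitted change was 0.58 ± 0.05 (SE), 1.49-fold, with an adjusted p of 5.45e-06 by limma, and all arrays gave nearly the same value. The dimmer probe, A_11_P183503, had ratios of 0.23, 0.20, 0.19 and 0.08 and a fitted change of 0.18 ± 0.05 (SE), with an adjusted p of 0.0094 by limma. It was well above background on all 4 arrays in grade 3 and on 3 in grade 1, at a median of 1.79 times its local background. The brighter exceeded the dimmer by 0.40 ± 0.05 (SE, adjusted p 0.000848 by limma). Both CKMT2 probes were dim, and their values moved with the correction: processed signals gave 1.52 and 0.66, and local backgrounds as measured gave 0.30 and 0.08, neither called. The call of A_11_P183503 was also lost under median centring and without the first array with grade 1 in Cy5, where its adjusted p by limma was 0.09.

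**Figure D2:**
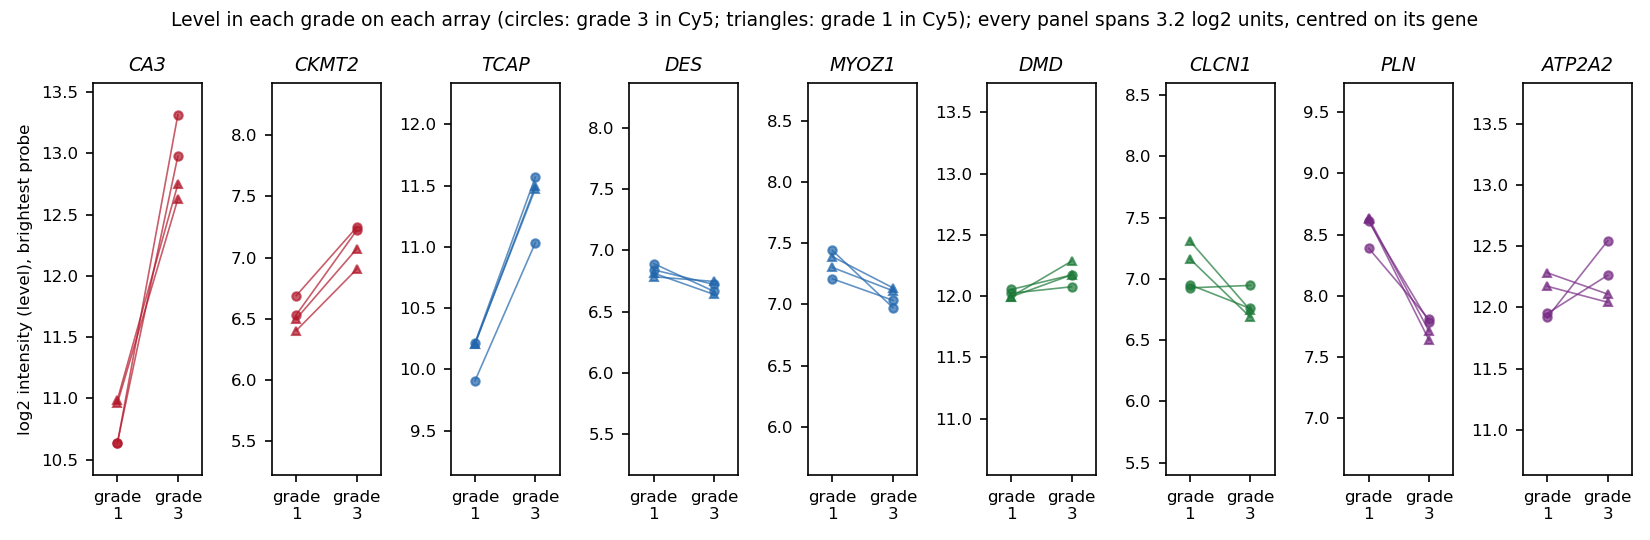
The log2 level of the brightest probe of each of the 9 genes (vertical axis) is drawn in grade 1 and grade 3, with a line joining the 2 grades of 1 array; circles are arrays with grade 3 in Cy5, triangles arrays with grade 1 in Cy5, and colours follow the roles. The lines of CA3, CKMT2 and TCAP all go up and those of PLN all go down, while the lines of ATP2A2 go up on 2 arrays and down on the other 2. Relative to spiked-in RNAs PLN was not called.

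Among the sarcomere genes, TCAP encodes telethonin, a small protein that caps titin at the Z disc. On its brightest probe, A_11_P081791, the log2 ratios were 1.36, 1.13, 1.29 and 1.27, with levels of 11.4 ± 0.24 in grade 3 and 10.1 ± 0.15 in grade 1 (SD, n = 4). No grade 3 level overlapped with a grade 1 level. The fitted change was 1.26 ± 0.05 (SE), with an adjusted p of 5.25e-08 by limma, and TCAP ranked 24 from the highest of 925 named genes by this probe.

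The other 3 TCAP probes did not share the rise. A_11_P178478 had log2 ratios of -0.29, -0.03, -0.22 and -0.35 and a fitted change of -0.22 ± 0.06 (SE, adjusted p 0.00645 by limma). A_11_P00000805 had -0.19, -0.03, -0.18 and -0.33 and a fitted change of -0.18 ± 0.05 (SE, adjusted p 0.0121 by limma). A_11_P209023 had -0.10, -0.04, -0.05 and -0.28, and its change of -0.12 ± 0.05 (SE) was not called, with an adjusted p of 0.089 by limma. All 3 were below 0 on every array, with overlapping levels of the grades, and they were not dim: they shone at 17.4, 6.97 and 6.31 times their local background, beside 40.3 times for the brightest. The call of A_11_P00000805 was lost without the second array with grade 1 in Cy5 (adjusted p 0.109 by limma), without the dye term (0.059) and under median centring (0.101), and that of A_11_P178478 under median centring (-0.05, adjusted p 0.41).

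The difference between the TCAP probes was tested directly, with limma on the difference of the log2 ratios between a gene's brightest probe and each of its other tested probes, over 506 such pairs of all named genes. The brightest TCAP probe exceeded the other 3 by 1.48 ± 0.08, 1.44 ± 0.07 and 1.38 ± 0.07 (SE) on the log2 scale, with adjusted p values of 1.05e-05, 7.18e-06 and 7.11e-06. The difference had the same sign on all 4 arrays for each pair, and with every local background as measured it was 1.22, 1.15 and 1.10 with adjusted p values of 0.056, 0.058 and 0.056 by limma. In this family 34.2% of all pairs were called different, and pairs differing by over 1 made up 5.14%. TCAP had the seventh widest spread between probes of 347 named genes with several tested probes, though a spread can widen with more probes. The mean of its 4 probes was 0.18, so the value for the gene rests on which probe is read.

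DES encodes desmin, the intermediate filament that links neighbouring Z discs. Its single probe, A_11_P0000020185, had log2 ratios of -0.12, -0.23, -0.17 and -0.04, with levels of 6.69 ± 0.05 in grade 3 and 6.83 ± 0.05 in grade 1 (SD, n = 4) that did not overlap. The change of -0.14 ± 0.05 (SE) passed the test with an adjusted p of 0.0344 by limma. The call was lost with local backgrounds as measured, without the dye term in the fit and without the second array with grade 3 in Cy5 or the first or the second with grade 1 in Cy5, where the adjusted p by limma was 0.102, 0.236 and 0.0564. The probe shone at 2.48 times its local background, and DES lay near the middle of the named genes, at rank 515 of 925.

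MYOZ1, the Z disc protein myozenin 1 of fast muscle fibres, was slightly lower on 2 of its 3 probes. A_11_P050501 had log2 ratios of -0.47, -0.18, -0.19 and -0.25 and A_11_P127736 had -0.35, -0.38, -0.28 and -0.08. Both gave a fitted change of -0.27 (SE 0.06 and 0.05), with adjusted p values of 0.00233 and 0.00119 by limma, and the levels of the grades did not overlap for either. The remaining probe, A_11_P190843, had ratios of -0.27, -0.11 and -0.11 on 3 arrays and 0.51 on the second array with grade 1 in Cy5, and its fitted change of 0.0059 ± 0.09 (SE) was not called (adjusted p 0.958 by limma). Its difference from the brightest probe, -0.28 ± 0.11 (SE), was not called either (adjusted p 0.0871 by limma), but it was called without the second array with grade 3 in Cy5 (-0.31, adjusted p 0.0366) or the first with grade 1 in Cy5 (-0.45, adjusted p 0.0179). Over the 3 sarcomere genes 1 of 8 tested probes was called higher, 5 lower and 2 were not called, with a median log2 fold change of -0.16. Of all tested probes, 31.2% were called higher and 30.5% lower. Relative to the spiked-in RNAs all 5 lower sarcomere probes turned to higher.

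Among the membrane genes, DMD encodes dystrophin, which links actin to the membrane complex and is also made in shorter forms outside muscle. It had 10 tested probes, of which 5 were called higher, 3 lower and 2 were not called. The higher probes changed little. The brightest, A_11_P053266, had log2 ratios of 0.12, 0.05, 0.18 and 0.29, and its change of 0.16 ± 0.05 (SE, adjusted p 0.016 by limma) was 1.12-fold, between levels of 12.2 ± 0.09 and 12.0 ± 0.03 (SD, n = 4). The other 4 higher probes, A_11_P050776, A_11_P114341, A_11_P053816 and A_11_P054861, had changes of 0.17, 0.15, 0.16 and 0.32. All 5 were above 0 on all 4 arrays, and the levels of the grades overlapped for A_11_P114341 only.

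The lower DMD probes moved further. A_11_P114356 had log2 ratios of -0.75, -0.59, -0.94 and -0.97, levels of 8.86 ± 0.24 in grade 3 and 9.67 ± 0.20 in grade 1 (SD, n = 4), and a change of -0.81 ± 0.05 (SE), with an adjusted p of 5.90e-07 by limma. Its grades did not overlap, and it shone at 16.9 times its local background. A_11_P114361 had -0.32, -0.30, -0.90 and -0.75, so that its change of -0.57 ± 0.05 (SE, adjusted p 6.38e-06 by limma) was larger with grade 1 in Cy5 than with grade 3 in Cy5. A_11_P0000020052 had -0.26, -0.37, -0.27 and -0.46 and a change of -0.34 ± 0.05 (SE, adjusted p 0.000297 by limma). It was dim, at 3.31 times its local background. A_11_P114346 and A_11_P114351, at -0.06 and 0.0024, were not called, with adjusted p values of 0.442 and 0.969 by limma.

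The 3 lower DMD probes differed from the brightest one by 0.97 ± 0.06, 0.73 ± 0.05 and 0.50 ± 0.06 (SE) on the log2 scale, with adjusted p values of 1.92e-05, 3.26e-05 and 0.000848 by limma, and each difference had the same sign on all 4 arrays. With local backgrounds as measured these differences were 0.68, 0.39 and 0.24 and none was called. The differences from A_11_P114346 and A_11_P114351, 0.22 ± 0.07 and 0.16 ± 0.05 (SE), passed narrowly (adjusted p 0.0417 and 0.0494 by limma) and lost their calls without the first array with grade 3 in Cy5 or either with grade 1 in Cy5. The 4 other higher probes were not called different from the brightest, although the difference from A_11_P054861 was -0.46 and called with processed signals (adjusted p 0.0212). The spread over the DMD probes, 1.13, ranked 13 of 347 named genes, and the mean over all 10 probes was -0.08, not called. Such a spread can widen with the number of probes, and the rank makes no allowance for that. Among the higher calls, that of A_11_P053266 was lost without the second array with grade 1 in Cy5, that of A_11_P050776 without the first, that of A_11_P114341 without either, and that of A_11_P053816 without the second with grade 1 in Cy5 or the first with grade 3 in Cy5, with adjusted p values by limma from 0.0715 to 0.156. Without the dye term A_11_P053266, A_11_P114341 and A_11_P053816 were not called (adjusted p 0.0738, 0.0647 and 0.0904 by limma), and A_11_P053816 was also lost with processed signals and under median centring. The 3 lower calls and that of A_11_P054861 held without any 1 array.

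CLCN1 encodes the chloride channel that steadies the resting potential of skeletal muscle fibres. Its tested probe, A_11_P0000019845, had log2 ratios of -0.19 and 0.02 with grade 3 in Cy5 and -0.48 and -0.57 with grade 1 in Cy5. Their means, -0.09 and -0.52, differ by dye orientation, and the levels of the grades overlapped. The fit, which gives each probe its own dye term, put the change at -0.30 ± 0.05 (SE, adjusted p 0.000725 by limma), and without that term the call was lost (adjusted p 0.0506). The other CLCN1 probe, A_11_P052241, was not well above background on any of the 4 arrays in either grade and was not tested.

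Among the calcium genes, PLN encodes phospholamban, the small membrane protein that restrains the SERCA pumps. On its brightest probe, A_11_P050151, the log2 ratios were -0.82, -0.58, -0.93 and -0.99, and the levels were 7.74 ± 0.08 in grade 3 and 8.57 ± 0.12 in grade 1 (SD, n = 4). The probe was lower on every array, without overlap of the grades. The change of -0.83 ± 0.05 (SE) had an adjusted p of 9.34e-07 by limma, and PLN ranked 88 from the lowest of 925 named genes. A_11_P180453 had ratios of -0.46, -0.33, -0.48 and -0.49 and a smaller change of -0.44 ± 0.05 (SE, adjusted p 3.25e-05 by limma), and the difference between the 2 probes, -0.39 ± 0.05 (SE), was itself called (adjusted p 0.00111 by limma).

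The third PLN probe, A_11_P0000020042, was not tested. It stood well above background on 4 arrays in its Cy5 channel but in Cy3 on 1, which makes 2 arrays for grade 3 and 3 for grade 1, and its ratios of 0.15, 0.28, -1.07 and -0.59 changed sign with the dye orientation. The 2 tested probes were at -1.08 and -0.81 with processed signals. With local backgrounds as measured they were at -0.54 and -0.25, neither called, and relative to the spiked-in RNAs at -0.16, not called, and 0.23.

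ATP2A2 encodes SERCA2, the pump that returns calcium to the reticulum, and its 5 probes split. The brightest, A_11_P0000019932, had log2 ratios of 0.31 and 0.63 with grade 3 in Cy5 and -0.13 and -0.17 with grade 1 in Cy5. Its sign followed the dye, the levels of the grades overlapped, and the call at 0.16 ± 0.06 (SE, adjusted p 0.0394 by limma) was lost without the dye term and without the second array with grade 3 in Cy5 (0.08, adjusted p 0.21) or either array with grade 1 in Cy5 (adjusted p 0.136 and 0.0899). A_11_P050606, printed as 5 spots of which 4 were used, was higher on every array at 0.25, 0.13, 0.42 and 0.26, with a change of 0.26 ± 0.05 (SE, adjusted p 0.0014 by limma). Its 4 spots ranged from 0.24 to 0.26, from 0.09 to 0.15 and from 0.39 to 0.44 on the first 3 arrays, and from 0.02 to 0.36 on the second array with grade 1 in Cy5.

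The other 3 ATP2A2 probes were lower. A_11_P188678 had log2 ratios of -0.04, -0.01, -0.60 and -0.42, near 0 with grade 3 in Cy5 and clearly below it with grade 1 in Cy5. A_11_P051486 had -0.21, -0.29, -0.40 and -0.21, and A_11_P150023 had -0.23, -0.07, -0.58 and -0.22. Their fitted changes were -0.27, -0.28 and -0.28 (SE 0.05, 0.05 and 0.06), with adjusted p values of 0.0012, 0.00098 and 0.00431 by limma. The levels of the grades did not overlap for the last 2. Without the dye term the call of A_11_P188678 was lost (adjusted p 0.089 by limma). All 3 calls were lost under median centring, with values from -0.11 to -0.06, and relative to the spiked-in RNAs all 3 were higher.

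The 3 lower ATP2A2 probes differed from the brightest by 0.43 ± 0.07, 0.44 ± 0.08 and 0.43 ± 0.08 (SE) in that order, with adjusted p values of 0.00296, 0.00461 and 0.00413 by limma. Without the first array with grade 1 in Cy5 the first 2 of these were 0.37 and 0.38 with adjusted p values of 0.0579 and 0.078. The difference between the brightest probe and A_11_P050606, -0.11 ± 0.08 (SE, adjusted p 0.356 by limma), was not called; without the second array with grade 3 in Cy5 it was -0.22 and called (adjusted p 0.0176). The mean over the 5 probes was -0.08, not called.

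Probes of one muscle gene were also compared across genes. Of the 22 pairs within the 7 genes with several tested probes, 15 (68.2%) were called different, with a median size of 0.42 beside 0.12 over all 506 pairs of named genes. With local backgrounds as measured 1 of the 22 was called, beside 6.92% of all named pairs. Members share a brightest probe within a gene, so these pairs are not independent. Without the first or the second array with grade 1 in Cy5, 20.0% and 19.4% of the pairs of all named genes were called different rather than 34.2%, and those of the muscle genes ranged from 12 to 17 over the 4 arrays left out. Probes called in opposite directions occurred in 14 of 347 named genes (4.03%), among them TCAP, DMD and ATP2A2. More probes give more room for opposite calls, and these genes had 4, 10 and 5 tested probes. Taking the brightest probe of each gene, 5 of the 9 genes were called higher and 4 lower, with a median of 0.16, while 70.2% of 925 named genes were called, 24.1% higher and 46.1% lower, with a median of -0.09. Without the second array with grade 1 in Cy5, or when all probes of a gene were averaged, 3 genes were called higher.

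Grouped by role, all 5 tested probes listed under energy were called higher, and their median change was 1.23 on the log2 scale. Of these, 3 belong to CA3, and the 2 of CKMT2 were at 0.58 and 0.18, so the median reflects CA3. The membrane genes had 5 probes higher, 4 lower and 2 not called, and a median of 0.0024. The calcium genes had 2 higher and 5 lower, with a median of -0.28. Over all tested probes, 31.2% were called higher and 30.5% lower, and probes of the same gene are not independent members of a role. Under spike-in scaling the 5 energy probes were also higher, whereas no membrane or calcium probe was called lower.

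**Figure D3:**
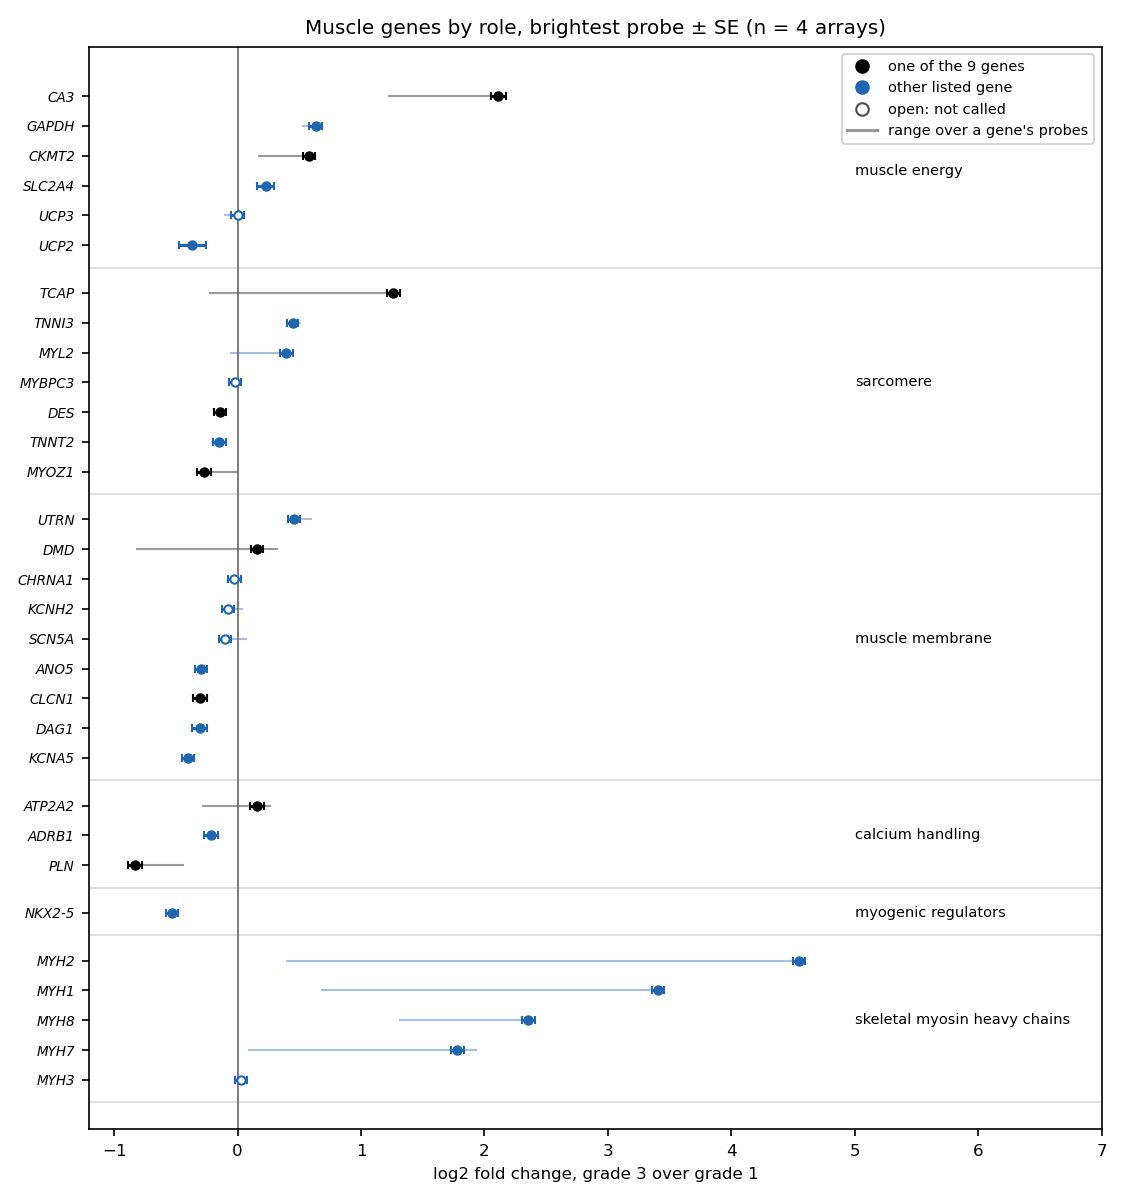
The fitted log2 fold change of the brightest probe (horizontal axis, whisker SE, n = 4 arrays) is drawn for the 9 genes in black and for other listed muscle genes in blue, grouped by role; open points were not called and pale lines give the range over a gene's probes. CA3 and TCAP lead their groups, PLN is the lowest of the calcium genes, and 4 of 5 myosin heavy chains are above 1.7. Relative to the spiked-in RNAs, the listed genes below 0 that the text names turned to above 0, and PLN was not called.

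Other muscle genes were read from lists that hold far more genes than carry a RefSeq name on this array. Of 45 listed sarcomere genes 4 were tested by their brightest probe, 2 higher, 1 lower and 1 not called. Their median log2 fold change was 0.19 beside -0.09 over all named genes. TNNI3, the cardiac inhibitory troponin, was at 0.45 ± 0.05 (SE, adjusted p 2.18e-05 by limma) and MYL2, the slow and cardiac regulatory light chain, at 0.39 ± 0.05 (SE, adjusted p 0.000117 by limma), while TNNT2, cardiac troponin T, was at -0.15 ± 0.05 (SE, adjusted p 0.0294 by limma). The other MYL2 probe was at -0.05. All 3 calls were lost with local backgrounds as measured, and that of TNNT2 also without the second array with grade 3 in Cy5 (-0.11, adjusted p 0.0994) or with grade 1 in Cy5 (-0.11, adjusted p 0.207). Of 34 listed membrane genes 7 were tested, 1 higher, 3 lower and 3 not called, and their median was -0.10. UTRN, which encodes the dystrophin relative utrophin, was at 0.46 ± 0.05 (SE, adjusted p 3.03e-05 by limma), and with local backgrounds as measured at 0.35, not called (adjusted p 0.0584). The potassium channel gene KCNA5 was at -0.40, DAG1, which encodes dystroglycan, at -0.31, and ANO5, which encodes the membrane protein anoctamin 5, at -0.30, and of these 3 lower calls only that of KCNA5 held with local backgrounds as measured. Relative to the spiked-in RNAs, TNNT2, KCNA5, DAG1 and ANO5 were higher.

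Few of the calcium, energy and regulator genes could be read. Of 30 listed calcium genes 1 was tested: ADRB1, a receptor gene for adrenaline and noradrenaline, at -0.22 ± 0.06 (SE, adjusted p 0.00728 by limma). The call of ADRB1 was lost without the first array with grade 1 in Cy5 (adjusted p 0.0528). Of 32 listed energy genes 4 were tested, 2 higher, 1 lower and 1 not called, and their median was 0.11. GAPDH, a glycolytic enzyme of all cells, was at 0.63 ± 0.05 (SE, adjusted p 5.31e-06 by limma), the glucose transporter gene SLC2A4 at 0.23 ± 0.07 (SE, adjusted p 0.0172) and the mitochondrial carrier gene UCP2 at -0.37 ± 0.11 (SE, adjusted p 0.015). The call of SLC2A4 was lost without the first array of either dye orientation (adjusted p 0.0937 and 0.0971), and under median centring or without the dye term. That of UCP2 was lost with processed signals, under median centring and without the dye term. With local backgrounds as measured GAPDH remained called, while ADRB1, SLC2A4, UCP2 and NKX2-5 were not, with adjusted p values of 0.195, 0.282, 0.107 and 0.109 by limma. NKX2-5, a cardiac transcription factor and the only tested gene of 21 myogenic regulators, was at -0.53 ± 0.05 (SE, adjusted p 8.73e-06 by limma). ADRB1, UCP2 and NKX2-5 were above 0 relative to the spiked-in RNAs, NKX2-5 without a call.

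Of the skeletal myosin heavy chains, the motors of the sarcomere, MYH2, MYH1 and MYH8 changed more by their brightest probes than any of the 9 genes. Of 7 listed 5 were tested, 4 were called higher and 1 was not called, and their median was 2.36. MYH2 was at 4.55, MYH1 at 3.40 and MYH8 at 2.36, beside 2.11 for CA3, but their other probes reached down to 0.40, 0.68 and 1.31. With local backgrounds as measured MYH2 was at 3.65, MYH1 at 2.52, MYH8 at 1.54 and MYH7 at 1.06, the last not called (adjusted p 0.062 by limma), beside 1.98 for CA3, and with spike-in scaling MYH2 and MYH1 were at 5.22 and 4.07. The summed linear level of the tested myosin genes ran from 10234 to 11255 intensity units in grade 3 and from 904 to 1187 in grade 1.

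Markers of other cell types moved between the grades as well. None of the 10 listed smooth muscle markers carried a RefSeq name on the array, so smooth muscle, where DES and PLN are also made, could not be read. The 2 tested myoepithelial markers of 7 listed, OXTR and CAV1, were higher by 0.29 and 0.25 on the log2 scale. Of 4 tested heart markers, 1 was called higher and 2 lower, or 3 higher and 0 lower with spike-in scaling. Adipose tissue is a known site of CA3, and what fat cells add to its value was not tested. Of 4 tested adipocyte markers 0 were called higher and 3 lower, with a median of -0.26. Their summed level was 7530 to 8033 units in grade 3 and 8720 to 9068 in grade 1. The largest part of that sum was CD36, which was not called, at mean log2 levels of 12.2 in grade 3 and 12.1 in grade 1. With spike-in scaling 3 adipocyte markers were called higher and 1 lower.

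In mammary epithelium 4 of 7 tested markers were higher and 1 lower, with a summed level of 368149 to 479870 units in grade 3 against 46815 to 103690 in grade 1. Most of that sum was CSN2 and LALBA, which encode milk proteins, at mean log2 levels of 18.3 and 16.4 in grade 3. Besides these, TFF3 and MUC1 were higher, by 1.86 and 1.18 on the log2 scale, PGR was lower, and CLDN3 and ERBB2 were not called. Cartilage markers had 2 of 4 higher and 2 lower, summing to 86705 to 99642 units against 15803 to 23670, a sum made up mostly of COL2A1, at a mean log2 level of 16.4 in grade 3. Macrophage markers had 5 of 6 lower and 1 higher, summing to 38048 to 43985 units against 70522 to 79953, fibroblast markers 4 of 4 lower and endothelial markers 4 of 5 lower and 1 higher. Beside these counts, 46.1% of all named genes were called lower and 24.1% higher by their brightest probe. Under spike-in scaling 4 macrophage markers, 1 fibroblast marker and 1 endothelial marker were called lower, and 0 of the mammary or cartilage markers. No marker on the array was too dim to be tested. Their part in the values of the muscle genes was not tested.

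How the arrays were processed set the size of most changes. The calls of 5 of the 27 called probes remained with the same sign when local backgrounds were used as measured, including those that Feature Extraction had marked as outliers: A_11_P145143 of CA3, A_11_P081791 of TCAP, A_11_P114356 of DMD and A_11_P188678 and A_11_P051486 of ATP2A2. With processed signals 25 of 27 calls remained, and without the dye term 19. The calls of A_11_P145143 and A_11_P081791 held under every setting tried, and that of A_11_P114356 under all but spike-in scaling. Of the 31 tested probes, 15 shone at under 5 times their local background.

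**Figure D4:**
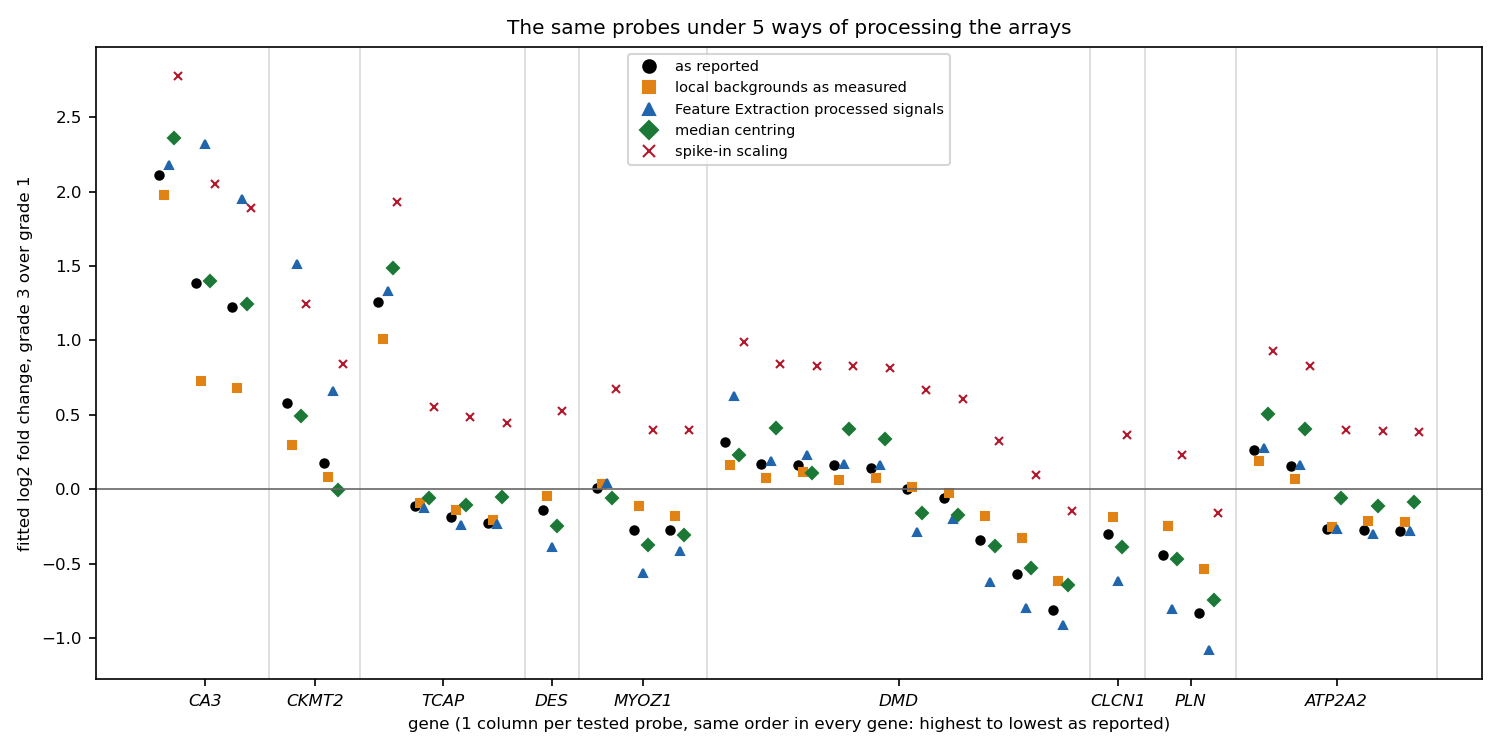
The fitted log2 fold change of each tested probe (vertical axis, 1 column per probe, in the order of the plot of ratios) is drawn under 5 ways of processing the arrays: as reported, with local backgrounds as measured, with processed signals, with median centring and with spike-in scaling. The brightest probes of CA3 and TCAP are above 1 in all 5, the spike-in values lie above the reported ones throughout and turn most lower probes to higher, and the values of dim probes such as those of CKMT2 are spread out.

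The 4 arrays lay on 1 slide. Their median signal before correction was 289 to 402 intensity units in Cy5 and 215 to 354.5 in Cy3, and 80.6% to 84.5% of readings were well above background. The ratios of pairs of arrays correlated across probes with coefficients from 0.69 to 0.94. With 4 arrays the fit had 2 residual degrees of freedom, to which limma's shared estimate of the spread added 7.49, and the number of arrays limits the precision.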

How the data were processed

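Per the submitters' processing notes, the scans were quantified in Agilent Feature Extraction 10.7.3.1. Per the file headers, the deposited columns of median signal, local background and processed signal hold linear intensity. The deposited log10 ratios, per the file headers, are Cy5 over Cy3 of the processed signals, which Feature Extraction had background-subtracted and dye-normalized. The series value table, also deposited, has the same log10 ratios with the swapped arrays turned. The dyes named in the labels gave each ratio its direction.

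All steps from there ran in R 4.3.3 with limma 3.58.1: normexp with an offset of 50 on all spots, local backgrounds marked as outliers set to the median background of that array and channel (151 to 2352 each), loess with control spots at weight 0, 11 to 39 spots per array with outlier marks left out, and spots of a probe averaged. The offset shrinks the ratios of dim probes. Log2 levels are single-channel values after loess and scaling of the average intensity (Aquantile). Of 43603 probes, 35411 were tested with grade and a constant dye term. A probe was named through its RefSeq accession and the reference gene table; old coordinates were not used.

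The members, the gene lists and the tests were chosen with earlier results of these data known. Every probe of the 9 genes is given. Of each other muscle list, up to 3 called genes in each direction with the largest changes are named. Marker lists are given mainly by counts. The same rule was written for them, but the single markers named were not chosen by it throughout. A few listed genes are not reported here and are left out of their list. Labels give both dye orientations the replicate numbers 1 and 2; deviations of same-numbered arrays correlated at -0.09, so the numbers were not treated as pairs.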

Additional observations from a re-analysis of the deposited data

How the results depend on the processing

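Over the alternatives tried, 393 values of single muscle probes kept direction and side of the threshold, 57 lost and 3 gained a call, and 20 turned sign. With local backgrounds as measured, 2327 probes were called higher and 4411 lower, with 2 and 3 muscle probes, 2 and 0 muscle genes, 6.92% of the pairs of named genes and 1 muscle pair. With spike-in scaling these were 32259 and 918 probes, 28 and 0 muscle probes and 8 and 0 muscle genes. Those calls share the uncertainty of a shift common to all probes and are not separate tests. Without the dye term 3 muscle genes were higher and 2 lower, and 21.1% of named pairs differed; with all probes of a gene averaged 3 muscle genes were higher. The cause of these shifts was not tested. Leaving out 1 array, the lone array of an orientation being assumed to vary like the others, gave 9077 to 10974 probes higher and 8990 to 10798 lower, 9 to 12 and 12 to 14 muscle probes, 3 to 5 and 3 to 4 muscle genes, 19.4% to 41.7% of named pairs and 12 to 17 muscle pairs.

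Signs turned under spike-in scaling for TCAP A_11_P178478 (0.44), A_11_P00000805 (0.48) and A_11_P209023 (0.55), DES (0.53), MYOZ1 A_11_P050501 (0.40) and A_11_P127736 (0.40), DMD A_11_P114361 (0.098), A_11_P0000020052 (0.33) and A_11_P114346 (0.61), CLCN1 (0.36), PLN A_11_P180453 (0.23), ATP2A2 A_11_P188678 (0.40), A_11_P051486 (0.39) and A_11_P150023 (0.39), and for TNNT2 (0.52), KCNA5 (0.27), DAG1 (0.36), ANO5 (0.37), ADRB1 (0.45), UCP2 (0.30) and NKX2-5 (0.13). With processed signals, and in the value table, DMD A_11_P114351 was at -0.29 and the brightest CA3 probe was below A_11_P128591 (-0.15). Median centring put CKMT2 A_11_P183503 at -0.0031, DMD A_11_P114351 at -0.16 and the DMD pair with A_11_P053816 at 0.30. The mean of probes put DMD at -0.082 and ATP2A2 at -0.080.

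With the replicate block as a fixed term no call of a muscle probe changed, while the DMD pair with A_11_P114351 lost its call at 0.16 (adjusted p 0.0944 by limma). With same-numbered arrays averaged, the DMD pairs with A_11_P114351 and A_11_P114346 lost their calls and the MYOZ1 pair with A_11_P190843 gained one. A random replicate block could not be fitted on 4 arrays with a dye term. Probes under 5 times their background limit what can be read of CKMT2, DES, MYOZ1 and CLCN1, and of some probes of CA3, DMD and PLN.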
